A study of Homo sapiens with 3 samples.

Results

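The genes described here are those of the MYC and MAX network, the set of DNA-binding proteins that pair with MAX or with its relative MLX. They were taken by name and comprised MYC, MYCN, MYCL, MAX, MXI1, MXD3, MXD4, MNT, MGA and MLX, which are 10 of the 17448 genes in the table. Of these, 9 had at least 10 counts in at least 1 library, as did 14031 genes of the whole table, and MYCN did not. The network was measured by RNA-seq in H128, a human small cell lung cancer (SCLC) cell line, 48 h after transfection of a control siRNA (siCont) or of siRNA against ERRG, the estrogen-related receptor gamma encoded by ESRRG (siERRG2 and siERRG3). Each condition was 1 library, all 3 came from the same line, and the labels did not say which of the study's siRNA sequences siERRG2 and siERRG3 carried. The comparisons asked which transcripts differed after siRNA against the receptor.

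The proteins of this network act as pairs. MAX has no activation domain of its own and binds the E-box CACGTG with MYC, MYCN or MYCL to activate transcription, or with the MXD proteins, MXI1, MNT and MGA, which recruit repressor complexes to the same sites. MLX forms a parallel arm with MLXIP (MondoA) and MLXIPL (ChREBP), the glucose-responsive factors, and also pairs with MXD1, MXD4 and MNT. In SCLC, MYC, MYCN and MYCL are known for amplification in separate tumours, and MAX and MGA are known as genes that some of these tumours lose.

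Where 3 values follow each other below, they stand for siCont, siERRG2 and siERRG3 in that order, and 2 log2 fold changes stand for siERRG2 and then siERRG3, each against siCont. The 3 libraries held 19861937, 19900580 and 20016780 counts. The targeted gene ESRRG had 806, 211 and 230 counts, so it was lower in both libraries labelled as ERRG siRNA (log2 fold changes of -1.94 and -1.82). Of 7 markers of SCLC states, CHGA, SYP, INSM1, NCAM1 and NEUROD1, the neuroendocrine ones, were at 54.8 to 183 FPKM (fragments per kilobase of transcript, scaled by library total), and POU2F3 and YAP1, which mark other SCLC states, were at 0.17 or less. INSM1 counts were 10359, 5279 and 9168, and NEUROD1 counts were 7395, 7020 and 4073. Over 8 markers of blood, endothelial and fibroblast cells the summed level was 25.4, 34.9 and 28.5 FPKM. Most of that sum was COL1A2, at 18.8 to 26.6 FPKM, and VWF had 0, 1 and 0 counts. The part of these differences in the results on the network was not tested.

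Among the 3 MYC paralogs, nearly all transcripts came from MYC (gene ID 4609, chromosome 8, 127734024 to 127742951, GRCh38). MYC had 21392, 20392 and 22528 counts, a level of 236, 225 and 246 FPKM. The 3 libraries thus lay close together, and MYC ranked 271, 295 and 282 among the genes of its library by FPKM, above 98.3%, 98.2% and 98.3% of the genes detected. It took 0.108%, 0.102% and 0.113% of all counts.

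The log2 fold changes of MYC were -0.09 and 0.05. The scaled count ratios were 0.942, with a 95% exact binomial interval of 0.924 to 0.961, and 1.04, with an interval of 1.02 to 1.06. Such an interval covers the error of counting reads only and compares libraries, not conditions. At this depth it lay beside 1 for MYC in both comparisons although neither value came near the 1.2-fold threshold that the study used and that is used below.

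MYCL (gene ID 4610, chromosome 1, 39895424 to 39902015), the paralog first isolated from SCLC, had 7, 17 and 2 counts, a level of 0.16, 0.30 and 0.04 FPKM. Its log2 fold changes against siCont were 1.06 and -1.19, but both intervals held 1 (ratios of 0.946 to 6.85 and of 0.0285 to 1.48). A difference between siCont and either library was thus not detectable at this depth. MYCN (gene ID 4613, chromosome 2, 15940438 to 15947296) had 0, 1 and 0 counts, and a count of 0 allows up to 3 counts, or 0.151 CPM (counts scaled by library total) in siCont and 0.15 in siERRG3. MYC made up 99.93%, 99.85% and 99.98% of the summed FPKM of the 3 paralogs.

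MYC also stood apart from the genes of its own chromosome band. FAM84B and GSDMC, which share it, were at 0.15 and 0.53 FPKM in siCont, and FAM49B was at 27.9.

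The obligate partners MAX and MLX came next in level. MAX (gene ID 4149, chromosome 14, 64984001 to 65102712) had 1349, 1472 and 1694 counts, or 34.4, 37.2 and 42.7 FPKM. It was highest in siERRG3, where its log2 fold change was 0.30 (ratio 1.23, 1.15 to 1.33), and it differed by 0.11 in siERRG2 (ratio 1.08, 1.0 to 1.16). In the coordinates of the table MAX overlaps the genes RAB15, FNTB and CHURC1-FNTB, of which CHURC1-FNTB had 203, 235 and 300 counts. MLX (gene ID 6945, chromosome 17, 42567060 to 42577826) had 2092, 2017 and 2355 counts, or 43.98, 42.0 and 48.9 FPKM. The counts of MLX were not whole numbers as deposited, and it overlaps PSMC3IP, with 329, 198 and 803 counts, and RETREG3, with 688, 704 and 834. Neither difference of MLX from siCont reached 1.2-fold, with log2 values of -0.07 and 0.15. MYC exceeded MAX in FPKM by 6.86, 6.04 and 5.78 times, and by 13.4, 11.7 and 11.3 times when counts were divided by the longest annotated transcript of each gene.

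In siCont the order of levels after MYC was MLX, MAX, MXI1, MNT, MXD4, MLXIP, MXD3, MGA, MXD1, MLXIPL and MYCL. The counting intervals of MNT and MXD4 overlapped, as did those of MLXIP and MXD3 and those of MGA and MXD1. In siERRG3 the order differed in its middle, where MNT stood above MXI1, and the intervals of MXI1 and MLXIP overlapped, as did those of MXD4 and MXD3. Counts divided by the longest annotated transcript in place of the deposited FPKM left MYC highest in each library but put MXI1 above MAX in siERRG2 and brought them together in siCont, at 21.5 for MAX and 21.4 for MXI1 on that scale. The order of MAX and MXI1 therefore depends on the length that is used.

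MYCL passed the count filter only through siERRG2, the library where it was highest, so it is left out of the counts of members. Of the other 8, each with over 10 counts in every library, 2 were at least 1.2-fold lower than siCont in siERRG2 (MXD3 and MGA) and 1 was higher (MXI1). Of all 14031 genes, 19.2% were lower and 16.4% higher by that threshold. In siERRG3, 4 of 8 were lower (MXI1, MXD3, MXD4 and MGA) and 2 were higher (MAX and MNT), against 25.1% and 23.2% of all genes. The interval lay beside 1 for 5 of 8 in siERRG2, against 44.0% of all genes, and for 8 of 8 in siERRG3, against 55.5%. These interval shares are not matched for count, and such an interval narrows as counts rise. Each of the 8 had 263 counts or more in every library, whereas 11369 of the 14031 genes averaged at least 50. The median of the 8 log2 fold changes was -0.03 for siERRG2 and -0.31 for siERRG3, and that of all genes was within 0.01 of 0 in both. These comparisons share the siCont library, and in bulk RNA fewer cells of a type and less RNA per cell cannot be told apart.

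**Figure D1:**
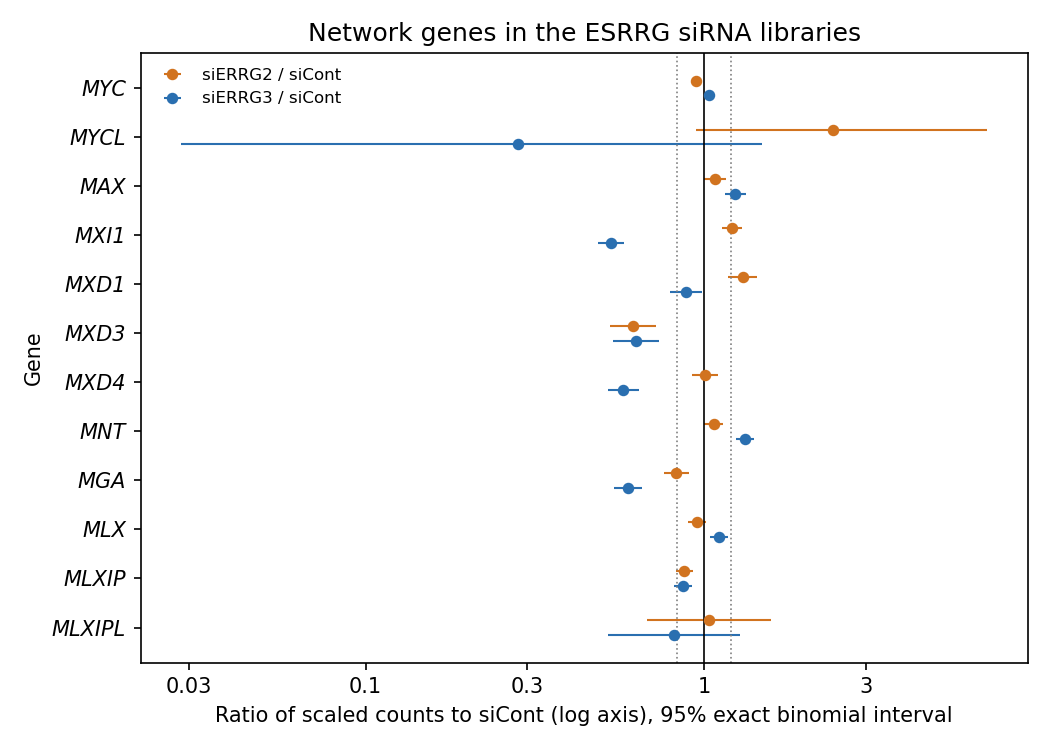
Ratio of scaled counts to siCont, on a log axis, for the network genes in siERRG2 and siERRG3 (points), with 95% exact binomial intervals for counting error (horizontal lines). Dotted lines mark 1.2-fold lower and higher. MXI1, MXD4 and MGA lie between 0.531 and 0.595 in siERRG3, MXD3 lies near 0.62 in both libraries, and MYC lies near 1.

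Among the members with intervals beside 1, the widest differences from siCont were those of repressor partners of MAX. MXI1 (gene ID 4601, chromosome 10, 110166750 to 110305824), a MAX partner that brings SIN3 corepressors to E-boxes, had 1475, 1804 and 796 counts, or 21.7, 26.2 and 11.5 FPKM. It was highest in siERRG2 and lowest in siERRG3. The log2 fold change against siCont was 0.27 in siERRG2 (ratio 1.21, 1.13 to 1.30), at the edge of the threshold, and -0.91 in siERRG3 (ratio 0.531, 0.486 to 0.579). SMNDC1, which overlaps MXI1 in the table, had 1159, 1175 and 1178 counts.

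MXD4 (gene ID 10608, chromosome 4, 2247432 to 2262143), a family member associated with differentiated, non-dividing cells, had 999, 1015 and 586 counts. The siCont and siERRG2 libraries were level and siERRG3 was lower, at log2 fold changes of 0.01 (ratio 1.0, 0.92 to 1.10) and -0.79 (ratio 0.577, 0.520 to 0.639). MXD4 overlaps NSD2 in the table, which had 1908, 1636 and 1673 counts.

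MXD3 (gene ID 83463, chromosome 5, 177305500 to 177313396), the family member linked to S phase in dividing cells, had 423, 263 and 271 counts. Both siRNA libraries were lower than siCont, by log2 values of -0.70 (ratio 0.615, 0.525 to 0.719) and -0.66 (ratio 0.630, 0.539 to 0.736). The counts of MXD3 were not whole numbers as deposited, and it overlaps RAB24, LMAN2 and PRELID1. PRELID1, also not whole, had 5793, 6542 and 6746 counts. Its gains of 749 and 953 counts were larger than the losses of 160 and 152 in MXD3, and the part of read sharing in the difference of MXD3 was not tested.

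MXD1, no member of the set but the best known of the MXD family, had 701, 921 and 628 counts. It was highest in siERRG2, with a log2 fold change of 0.38 (ratio 1.30, 1.18 to 1.43), and differed by -0.18 in siERRG3 (ratio 0.881, 0.790 to 0.983).

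MNT (gene ID 4335, chromosome 17, 2374994 to 2402116), the broadly expressed repressor that pairs with both MAX and MLX, had 1808, 1948 and 2428 counts, or 16.3, 17.8 and 22.8 FPKM. It was highest in siERRG3, with a log2 fold change of 0.40 (ratio 1.32, 1.24 to 1.40), and differed by 0.09 in siERRG2, where the interval held 1 (0.999 to 1.14). Its counts too were not whole, and it overlaps SGSM2, with 853, 801 and 987 counts, and METTL16, with 790, 739 and 770. MNT was the only repressor partner of the 6 that was at least 1.2-fold higher in siERRG3.

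MGA (gene ID 23269, chromosome 15, 41595830 to 41773080), a large protein with both a T-box and a MAX-pairing domain, had 1216, 1016 and 736 counts, or 6.54, 5.54 and 4.05 FPKM. It was lower in siERRG2 by a log2 value of -0.28 (ratio 0.826, 0.759 to 0.898) and in siERRG3 by -0.75 (ratio 0.595, 0.542 to 0.653). In siERRG2 it no longer reached 1.2-fold when counts were scaled by their totals or when FPKM was used (-0.26 and -0.24). MAPKBP1, which overlaps MGA in the table, had 843, 688 and 471 counts, in the same order as MGA, and TYRO3, which also overlaps it, had 1173, 1200 and 1084.

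Summed over MXD1, MXI1, MXD3, MXD4, MNT and MGA, the MAX-binding repressors came to 81.4, 83.3 and 61.7 FPKM. The sum was 2.36, 2.24 and 1.45 times the MAX level, and MYC stood at 2.90, 2.70 and 3.99 times the sum. With the longest annotated transcripts as lengths the sum was 3.38, 3.28 and 2.15 times the MAX level and MYC stood at 3.98, 3.59 and 5.24 times the sum. The make-up of the sum differed too. MXI1 gave 26.6%, 31.4% and 18.6% of it, whereas MNT gave 20.1%, 21.4% and 36.9%. These sums weigh transcripts, not proteins or pairs, and come from 1 library each.

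**Figure D2:**
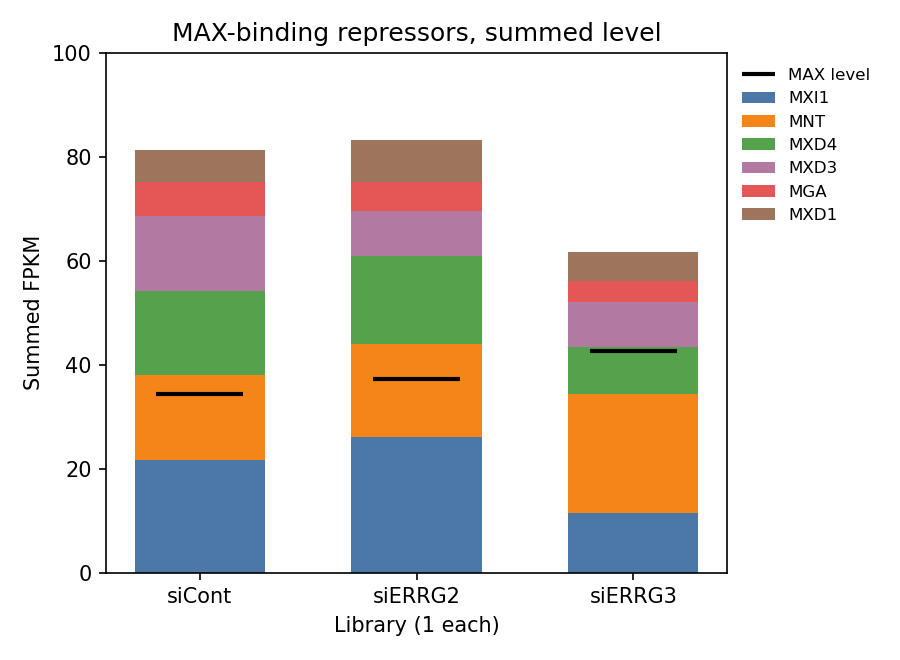
Summed FPKM of the 6 MAX-binding repressors in the siCont, siERRG2 and siERRG3 libraries (stacked bars, 1 library each), with the level of MAX as a black line. The sum is 81.4, 83.3 and 61.7 FPKM. MNT is the largest part of the siERRG3 bar and MXI1 of the other two.

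Compared directly, siERRG3 had 3 of the 8 genes at least 1.2-fold lower than siERRG2 (MXI1, MXD4 and MGA) and 1 higher (MNT), against 25.3% and 26.4% of all genes. The interval lay beside 1 for 7 of 8, all but MXD3, against 57.5% of all genes, a share again not matched for count. MXI1 differed by -1.19 (ratio 0.439, 0.403 to 0.477), MXD4 by -0.80 (ratio 0.574, 0.518 to 0.636) and MGA by -0.47 (ratio 0.721, 0.654 to 0.793). MNT was higher by 0.31 (ratio 1.24, 1.17 to 1.32) and MAX by 0.19 (ratio 1.14, 1.07 to 1.23). MXD3 was level between the siRNA libraries, at 0.04 (ratio 1.02, 0.862 to 1.22). MYCL, with 17 against 2 counts, had a ratio of 0.117 (0.0131 to 0.493), but it was counted only because of its level in siERRG2. ESRRG itself had 211 and 230 counts in these libraries.

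Since the network acts on E-boxes, the promoters of its own genes were searched for them in RefSeq windows of 300 bases, from 250 before to 50 after the start (GRCh38.p14, 14 of 15 genes matched). The gene without a match was MYC, so its promoter was not searched for any of the motifs below. On either strand CACGTG lay in 7.26% and its variant CACGCG, read as CGCGTG on the other strand, in 11.4% of all 35116 promoters of that length. Of the members, MXD4, MNT and MLX held CACGTG, and MXI1, MXD3 and MGA held the variant, MXI1 and MGA in 1 of 3 promoters each. The matches with 12 bases on either side are shown because these genes include those that differed most between libraries, with the motif in capitals. All are read 5′ to 3′ on the strand of the gene.
MXI1 (chr10:110225992-110226021, plus strand): aggtaaacaaacCACGCGcgggctgcccgc
MXD3 (chr5:177312727-177312756, minus strand): aaaaggccatttCGCGTGcctccagggtat
MXD4 (chr4:2262330-2262359, minus strand): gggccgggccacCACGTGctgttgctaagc
MNT (chr17:2401236-2401265, minus strand): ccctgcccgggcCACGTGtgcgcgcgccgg
MGA (chr15:41660372-41660401, plus strand): agcgggtaggagCGCGTGcgcggtgacgtg
MLX (chr17:42567038-42567067, plus strand): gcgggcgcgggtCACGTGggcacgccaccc
The element AAGGTCA, the half-site bound by estrogen-related receptors, lay in 3.92% of all promoters and in none of the promoters searched for these genes. At that share few or no matches are to be expected among so few promoters, and sequence outside them, such as enhancers, was not searched. A match is a description of letters. Of the members at least 1.2-fold lower in siERRG3, MXI1, MXD3, MXD4 and MGA held an E-box form. MYCL, whose interval held 1 there, held none. Of those at least 1.2-fold higher, MNT held a form and MAX held none in its 2 promoters. MLX, which held CACGTG, was higher by less than 1.2-fold. The shares given for all promoters are per promoter, not per gene, and a relation of motif to direction was not tested.

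In the MLX arm, the glucose-responsive partners MLXIP and MLXIPL are given here, and MXD1, MXD4 and MNT, which also pair with MLX, above. MLXIP, the MondoA gene, had 2368, 2094 and 2086 counts and log2 fold changes of -0.19 and -0.21. Neither reached 1.2-fold, but both ratio intervals lay below 1 (0.82 to 0.93 and 0.82 to 0.92). MLXIPL, the ChREBP gene, had 47, 49 and 39 counts at 0.76 FPKM or less. Its log2 fold changes were 0.04 and -0.28, and both intervals held 1 (0.677 to 1.57 and 0.520 to 1.27). The FPKM of MLXIP was 0.327, 0.301 and 0.255 times that of MLX.

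Both known direct targets of MondoA with MLX in the list were at least 1.2-fold lower than siCont in each siRNA library, as were 1106 of all 14031 genes. The list held only these 2 genes and was chosen with earlier results of these data known. TXNIP, which blocks glucose uptake and thioredoxin, had 1201, 829 and 975 counts. Its log2 fold changes were -0.55 (interval of the ratio 0.624 to 0.746) and -0.32 (0.733 to 0.869). ARRDC4, an arrestin-like protein, had 219, 171 and 142 counts, lower by log2 values of -0.37 (interval 0.628 to 0.947) and -0.64 (interval 0.513 to 0.791). Matches to the same letters in their promoters are given here, for TXNIP from 1 of 2 promoters. ARRDC4 also held the variant at positions -142 and -140 from the start, and these matches are not printed. The paired element that MondoA is known to bind was not searched.
TXNIP (chr1:145996725-145996754, minus strand): gcacaccgtgtcCACGCGccacagcgatct
TXNIP, nearer the start (chr1:145996617-145996646, minus strand): cgggccagcgctCGCGTGgctcttctggcc
ARRDC4 (chr15:97960481-97960510, plus strand): aaacggcctgtgCACGTGcacgccggagcc

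Partner complexes and target genes were taken as lists, whose counts are read against the shares of all genes at least 1.2-fold lower and higher, 19.2% and 16.4% in siERRG2 and 25.1% and 23.2% in siERRG3. MGA is the scaffold of a Polycomb complex, the variant PRC1 with PCGF6, whose 13 other subunits in the list were all measured. Of these 2 were lower and 2 higher in siERRG2 (15.4% each), and 4 were lower and 2 higher in siERRG3 (30.8% and 15.4%), with medians of 0.02 and 0.09. These shares lay near those of all genes. PCGF6, the subunit that defines the complex, had 547, 753 and 957 counts, and its log2 fold changes were 0.44 (ratio interval 1.22 to 1.52) and 0.78 (1.55 to 1.91). PCGF6 was thus highest where MGA was lowest. E2F6, a DNA-binding subunit, had 652, 670 and 466 counts, and YAF2 had 510, 556 and 796. The siERRG3 library was thus lower for E2F6 (-0.51) and higher for YAF2 (0.62). HDAC1, which is also in the corepressor list, had 3219, 2468 and 3487 counts, lower in siERRG2 by -0.40.

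Among 15 SIN3 and HDAC corepressor genes, whose products the MXD proteins and MNT recruit, 3 were lower (20%) and 0 higher in siERRG2, and 3 were lower and 3 higher in siERRG3 (20% each), with medians of -0.06 and 0.09. Apart from the 0 of 15 higher in siERRG2, these shares lay near those of all genes. SIN3B, a scaffold paralogous to SIN3A, had 1351, 957 and 1126 counts, and its log2 fold changes were -0.51 (interval 0.644 to 0.761) and -0.29 (interval 0.757 to 0.888). SIN3A had 1439, 1269 and 1210 counts, at -0.20 and -0.27. SUDS3, another subunit, was lower in siERRG3 by -0.58, and ARID4A was higher by 0.52.

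On the side of MYC, 20 coactivator genes had medians of -0.12 in siERRG2 and -0.06 in siERRG3. In siERRG2 1 was lower, PAF1 of the elongation-linked PAF complex (-0.52), and 0 were higher (5.0% and 0.0%, below the shares of all genes). In siERRG3 3 were lower, CTR9 of the same complex (-0.83), TRRAP, the scaffold that MYC binds in histone acetyltransferase complexes (-0.58), and BPTF, a chromatin remodeller (-0.29). RUVBL2 (0.33) and ING3 (0.38) were higher there, so that 15.0% were lower and 10.0% higher. TRRAP counts were 3254, 2896 and 2206, and CTR9 counts were 1532, 1806 and 878, lowest in siERRG3.

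Genes that control the stability of MYC protein, 20 in all, had medians of 0.05 and -0.03. In siERRG2 1 was lower, GSK3A, a kinase whose family marks MYC for degradation (2653, 1576 and 2556 counts, -0.77). STUB1 (0.35) and PPP2R5A (0.34) were higher there. In siERRG3 4 were lower, namely SKP2 (-0.33), HUWE1 (-0.27), TRIM32 (-0.27) and CIP2A (-0.37), of which the first 3 are ubiquitin ligase genes and CIP2A encodes an inhibitor of the phosphatase PP2A. USP36, a nucleolar deubiquitinase, was higher there by 0.38. The shares were 5.0% lower and 10.0% higher in siERRG2 and 20% and 5.0% in siERRG3, each below that of all genes. Those shares depend on abundance. Among genes averaging 1000 counts or more, they were 10.7% and 8.01% in siERRG2 and 20.8% and 14.8% in siERRG3. Against these, the 10.0% higher in siERRG2 was not below and the 20% lower in siERRG3 was near. RNA values carry nothing on the amount of MYC protein.

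The outputs of the network were read from 40 canonical MYC-activated genes and from the Hallmark MYC target sets V1 and V2, as the annotation of the deposited table names them. Of the 40, 4 were lower and 3 higher than siCont in siERRG2 (10.0% and 7.5%) and 1 was lower and 7 higher in siERRG3 (2.5% and 17.5%), with medians of 0.07 and 0.13. SRM, the spermidine synthase gene, had 12064, 14688 and 15822 counts, and its log2 fold changes were 0.27 (interval 1.17 to 1.23) and 0.37 (interval 1.26 to 1.32). CDC25A, a phosphatase of the G1 to S transition, had 1965, 2414 and 2531 counts and differed by 0.28 and 0.34. Both were thus lowest in siCont. The nucleolar genes NPM1 (0.27) and NOP58 (0.40) and the polyamine gene ODC1 (0.29) were higher in siERRG3, and SHMT2, a mitochondrial enzyme of serine use, was the 1 gene lower there (4869, 5489 and 3203 counts, -0.63).

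Hallmark V1 held 200 genes, all measured, of which 13 were lower and 6 higher in siERRG2 (6.5% and 3.0%), and 12 were lower and 37 higher in siERRG3 (6.0% and 18.5%). Its medians on the log2 scale were 0.01 and 0.10, and 107 and 134 of 200 were above 0. V2, with 58 genes of which 18 are also in V1, had 4 lower and 3 higher in siERRG2 and 4 lower and 13 higher in siERRG3. Its medians were 0.06 and 0.16, and 35 and 45 of 58 genes were above 0. MYC is itself in both sets.

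The genes of these sets are abundant, with a median of 127 FPKM for V1 and 41.8 for V2 in siCont against 8.02 over all genes. Among the 4684 genes that averaged 1000 counts or more over the libraries, which include 198 of the V1 and 51 of the V2 genes, 10.7% were lower and 8.01% higher in siERRG2, and 20.8% were lower and 14.8% higher in siERRG3. The median over those genes was 0.01 and -0.01. Against these shares, lower values in siERRG3 were fewer in V1 (6.0%) and V2 (6.9%), and the higher values were at 18.5% and 22.4%. At 1.5-fold, 4 V1 genes were lower and 3 higher in siERRG3, so most of these differences were small.

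Among V1 genes, IFRD1, a regulator of differentiation, had 2831, 4290 and 5188 counts (0.58 and 0.85), and PSMC4, a proteasome ATPase, had 2565, 3135 and 3911 (0.27 and 0.58). TYMS, the thymidylate synthase gene, had 3929, 3291 and 2885 counts and was lower by -0.27 and -0.47. In V2, NIP7, a ribosome assembly factor, had 950, 1322 and 1316 counts (0.46 and 0.45), and DUSP2, a MAP kinase phosphatase, had 277, 383 and 379 (0.45 and 0.43). Of the activated genes named in this and the preceding paragraphs, NPM1, SRM, TYMS, IFRD1 and NIP7 had counts that were not whole as deposited, as did SIN3A, SUDS3, YAF2, PAF1, BPTF, SKP2, STUB1 and CIP2A among the partners. How their reads were shared with other genes is unknown.

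Of 8 genes that MYC is known to repress, 3 were lower and 2 higher in siERRG2 (37.5% and 25.0%, against 19.2% and 16.4% of all genes), and 3 were lower and 4 higher in siERRG3 (37.5% and 50%, against 25.1% and 23.2%). Among the lower ones are CDKN1C, with 18, 10 and 7 counts, and NDRG1, with 25, 8 and 28, which rest on few reads. GADD45A, a stress-response gene, had 820, 975 and 1964 counts, highest in siERRG3 (log2 fold change 1.23). CLU, the clusterin gene, had 293, 278 and 542 counts, and CEBPA had 47, 59 and 124 (0.86 and 1.34 in siERRG3). The cyclin-dependent kinase inhibitor genes differed in direction. CDKN2B was higher in siERRG3 (230, 187 and 506 counts), whereas CDKN1A had 6799, 9349 and 5507 counts and CDKN1B had 2265, 2437 and 1510 (-0.61 in siERRG3). The counts of CLU, CDKN1B and CDKN2B were not whole as deposited.

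Germline genes that MGA and PCGF6 are known to keep silent were low in H128. Of 16 in the list, 13 were in the table and 6 passed the count filter, TDRD1 and TAF7L only through siERRG3 and MOV10L1 only through siCont, the library where each was highest, so no count or median over the 6 is given. TDRD1 had 5, 3 and 11 counts, TAF7L had 5, 5 and 10, and MOV10L1 had 13, 6 and 5. STAG3 had 127, 99 and 162 counts, and DMC1, the meiotic recombinase gene, had 26, 22 and 44. For DMC1 the interval in siERRG3 began at 1.0 and ended at 2.81, and for STAG3, TDRD1, TAF7L and MOV10L1 it held 1. HORMAD1, a cancer-testis gene, was the exception in level with 656, 724 and 562 counts, and it differed from siCont by less than 1.2-fold in both libraries.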

How the data were processed

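Total RNA from H128 cells was sequenced from directional libraries, described as paired-end in the labels and as single-end in the methods. The submitters' processing notes name TopHat2, HTSeq and DESeq2 with hg19, hg38 and GRCh38, and the methods name other aligners. The program that made the counts, and whether it used strand, are not given in the sources used here. The deposited table holds expected counts per gene, of which 54.0 to 54.9% were whole numbers and which were rounded here, and FPKM values, a unit inferred from their ratio to the deposited counts. The 6 columns of the authors' own comparisons were not used. Genes reaching 10 counts in any of the 3 libraries were kept. Counts were scaled by TMM (edgeR 4.0.16, R 4.3.3) and log2 CPM computed with a prior count of 2. With 1 library per condition no test was possible, and no p-value is given. Instead, genes at least 1.2-fold apart were counted, with 95% Clopper-Pearson intervals of the ratio (SciPy 1.17.1), which cover counting error only. The script was tested on simulated data. Genes were named by a rule: all members, and in each list up to 3 genes lower and 3 higher in both siRNA libraries with intervals beside 1. For the Hallmark and amplification sets a mean of at least 50 counts was required in place of the intervals. Others named were chosen after their values were seen. Members and lists were chosen with earlier results of these data known, and the sets on amplified SCLC lines were added after the table was seen. Gene coordinates are those of the table (GRCh38), and promoters are from RefSeq (GRCh38.p14). DESeq2 1.42.0 size factors, total counts, FPKM with a pseudocount of 0.1, a prior count of 0.5, other filters and a 1.5-fold threshold were tried as alternatives.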

Additional observations from a re-analysis of the deposited data

Results flagged for a closer look

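Among the members and the lists of partners and targets, leaving out the Hallmark, amplification and cell type marker sets, 6 genes lay at least 1.2-fold from siCont in opposite directions in the siERRG2 and siERRG3 libraries, with intervals beside 1 in both. By list they were 1 of 8 members (without MYCL), 1 of 13 subunits of the complex with PCGF6, 2 of 40 MYC-activated genes and 2 of 8 MYC-repressed genes. There were 0 among 3 other network genes, 15 corepressor, 20 coactivator, 20 stability and 2 MondoA target genes. The germline genes are not counted here, for the reason given with them above. Some genes are in more than 1 list. Over all genes 410 of 14031 did so (2.92%). The difference was not tested, since each condition is 1 library. A difference between siERRG2 and siERRG3 follows from this choice of genes, so the values and intervals below only describe it. MXI1, the MAX partner, had counts of 1475 (siCont), 1804 (siERRG2) and 796 (siERRG3), in the order used for the genes that follow, and siERRG3 lay below siERRG2 by a log2 value of -1.19. RYBP, a PRC1 subunit, had 763, 980 and 612 counts, a difference of -0.69 (ratio interval 0.561 to 0.688). CDKN1A, the p21 gene, had 6799, 9349 and 5507 counts, a difference of -0.77 (0.567 to 0.606). The other 3 genes were lowest in siERRG2. RRS1, a ribosome assembly gene, had 672, 501 and 861 counts, a difference of 0.77 (1.53 to 1.91). SLC7A5, the leucine transporter gene, had 7526, 5802 and 10060 counts, a difference of 0.79 (1.67 to 1.78). CDKN2B, the p15 gene, had 230, 187 and 506 counts, a difference of 1.42 (2.27 to 3.20). SLC7A5 and CDKN2B had counts that were not whole as deposited.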

How the results depend on the processing

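The log2 fold changes of the members kept their direction in 159 of 159 values under alternative settings and those of MXD1, MLXIP and MLXIPL in 49 of 51, the exceptions being values near 0 of MLXIPL with FPKM and of MLXIP with a mean of at least 50 counts, and 140 of 168 counts stayed within 1.5 times the reported one. Here members are counted with MYCL (9 genes), which gives 2 lower and 2 higher in siERRG2 against siCont. In that comparison the number lower was 1 with total counts, with FPKM and at 1.5-fold, and the number higher was 1 at 1.5-fold and with a mean of at least 50 counts, a filter that drops MYCL. Over all genes there, 3455 were higher without a filter, 1789 were lower and 1421 higher with a mean of at least 50 counts, and 978 were lower and 602 higher at 1.5-fold. At 1.5-fold in that comparison, 3 V1 genes were lower and 0 higher, and 0 V2 genes were lower and 0 higher. In siERRG3 against siCont at 1.5-fold, 0 members were higher, 1396 genes were lower and 1188 higher, V1 had 4 lower and 3 higher, and V2 had 0 and 0. In siERRG3 against siERRG2 at 1.5-fold, 0 members were higher, 1404 genes were lower and 1501 higher, V1 had 3 lower and 3 higher, and V2 had 1 lower and 2 higher. A higher threshold passes fewer genes by construction. No replicate could be left out, since each condition is 1 library. Depth limited MYCL and MYCN, whose counts were 17 or less.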

Other observations

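Gene sets defined in SCLC lines by amplification of MYC, MYCN or MYCL, which the table annotates and which were added after its values were seen, differed in level. The set that goes with MYC amplification had a median of 35.2 FPKM in siCont over 183 genes, against 11.6 for the MYCN set (74 genes), 9.0 for the MYCL set (11 genes) and 8.02 for all genes. These medians are over genes that passed the count filter, which were 183 of 189, 74 of 85 and 11 of 12 in the 3 sets. The MYC set holds MYC and MXI1. The MYCL set holds MYCL, which passed only through siERRG2.

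Of all genes, 19.2% were lower and 16.4% higher in siERRG2, and 25.1% and 23.2% in siERRG3. In the MYC set, 22 genes were lower and 19 higher in siERRG2, and 33 were lower and 41 higher in siERRG3 (12% and 10.4%, then 18.0% and 22.4%), with medians of -0.03 and 0.07. Of its genes, 8 were lower and 7 higher in both siRNA libraries, against 1106 and 1019 of all 14031 genes. Among the lower, NHLH1, a neuronal transcription factor gene, had 2229, 1368 and 1471 counts (siCont, then siERRG2 and siERRG3). ATP2B2, a calcium pump gene, had 2287, 1354 and 1134. Among the higher, FAM241A had 1048, 1403 and 1493 counts and VRK1 had 1216, 1533 and 1536, and NIP7 is given above. In the MYCN set, 15 were lower and 12 higher in siERRG2, and 23 were lower and 15 higher in siERRG3 (20.3% and 16.2%, then 31.1% and 20.3%). In the MYCL set without MYCL, 1 of 10 was lower and 1 higher in siERRG2, and 6 were lower and 0 higher in siERRG3, with medians of 0.13 and -0.31.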
